A study of Mus musculus with 2 samples.

Results

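Zfp352, Tcstv1, Tcstv3, Tdpoz1, Tdpoz3, Tdpoz4, Tmem92, Sp110 and Arg2 are genes known as markers of the 2-cell stage of the mouse embryo. They were examined as the 2-cell markers outside the Zscan4 family, in RNA-seq libraries of mouse embryonic stem cells given an siRNA against Set1a or a control siRNA. The genes were taken by symbol, through the RefSeq accession of each row of the deposited tables. All 9 had at least 1 row, among 22421 genes in all, and Tmem92 had a row for each of 2 transcripts.

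In the mouse, the embryonic genome is first switched on broadly at the 2-cell stage, together with retrotransposons whose long terminal repeats serve as promoters for many of its genes. A small and changing fraction of cultured embryonic stem cells enters a similar state, called 2-cell-like, which is marked by Zscan4 and by genes such as those described here. The enzyme made from Set1a, a gene listed as Setd1a, methylates histone H3 at lysine 4, a mark of active promoters.

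The cells were CGR8, an established mouse embryonic stem cell line grown without feeder cells on gelatin, in serum with LIF. One group received the Set1a siRNA and the other the negative control siRNA, with 2 transfections over 72 hours. Each group held 1 library, so no comparison has a replicate check and no p-value is given. The recovered depth was 6420000 reads in the Set1a siRNA library and 6660000 reads in the control siRNA library. Setd1a was at 11.97 RPKM in the Set1a siRNA library and 14.2 RPKM in the control siRNA library, a ratio of 0.846 with a counting interval of 0.746 to 0.959. RPKM is the read number scaled to transcript length in kilobases and to 1000000 reads of depth. Of the 10 embryonic stem cell markers examined, the counting intervals of 3 lay below 1 and of 1 above it, where 8.42% and 9.87% of genes with a read did so. The 3 were Sox2, with a ratio of 0.875, Tfcp2l1, with 0.871, and Dppa5a, with 0.844, and the 1 above was Tdgf1, with 1.09. An interval excludes 1 more readily with more reads, and Sox2 had 3269 reads in the Set1a siRNA library and 3877 in the control siRNA library. The shares, taken over all genes with a read, are therefore not a like background for these markers. Pou5f1, the defining pluripotency factor, was at 740 RPKM in the Set1a siRNA library and 745 RPKM in the control siRNA library. Of 7 fibroblast markers, Col1a2, Postn and Dcn were listed at 0 in both libraries, and the summed level was 4.30 RPKM in the Set1a siRNA library and 2.52 RPKM in the control siRNA library, most of it from Thy1. Col1a1 had 14 reads in the Set1a siRNA library and 3 in the control siRNA library, a ratio of 5.70 (1.35 to 26.3), the 1 fibroblast marker whose interval lay above 1, and its part in the results below was not tested.

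The RefSeq promoter table, on build GRCm38.p6, held windows for 4 of the 9 genes, from 250 bases before to 50 bases after an annotated start. Sp110 had 2 windows and the other genes 1 each. The windows of Zfp352, Tdpoz1 and the upstream start of Sp110 are shown because they share letters that few promoters have. The Tdpoz4 window is shown because Tdpoz4 had the most reads of the Tdpoz members and its window lacks those letters. The 50 bases after the annotated Tdpoz4 start begin with ATG, the letters of a start codon, so this window may lie away from the promoter. Capitals mark ACACACCTTTAATC and ATATAAG, as read 5′ to 3′ on the strand of the gene. Zfp352 lies on the plus strand at chr4:90218570-90218869, Tdpoz1 on the minus strand at chr3:93676234-93676533, Sp110 on the minus strand at chr1:85603842-85604141 and Tdpoz4 on the plus strand at chr3:93796148-93796447.
Zfp352: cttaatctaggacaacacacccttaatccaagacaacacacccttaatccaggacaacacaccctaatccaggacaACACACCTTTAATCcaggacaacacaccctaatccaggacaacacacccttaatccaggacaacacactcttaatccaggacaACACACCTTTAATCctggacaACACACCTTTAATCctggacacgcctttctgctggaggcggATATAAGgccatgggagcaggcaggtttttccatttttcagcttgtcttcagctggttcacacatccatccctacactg
Tdpoz1: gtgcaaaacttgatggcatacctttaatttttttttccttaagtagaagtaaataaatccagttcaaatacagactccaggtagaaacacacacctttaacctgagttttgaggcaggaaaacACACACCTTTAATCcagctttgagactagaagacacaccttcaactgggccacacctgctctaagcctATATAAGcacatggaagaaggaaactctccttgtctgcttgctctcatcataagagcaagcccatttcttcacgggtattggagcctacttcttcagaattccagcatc
Sp110: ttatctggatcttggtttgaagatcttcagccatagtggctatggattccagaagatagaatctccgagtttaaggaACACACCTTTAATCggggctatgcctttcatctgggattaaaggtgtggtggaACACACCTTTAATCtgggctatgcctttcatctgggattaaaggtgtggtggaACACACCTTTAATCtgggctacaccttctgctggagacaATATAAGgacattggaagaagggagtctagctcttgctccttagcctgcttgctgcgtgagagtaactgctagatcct
Tdpoz4: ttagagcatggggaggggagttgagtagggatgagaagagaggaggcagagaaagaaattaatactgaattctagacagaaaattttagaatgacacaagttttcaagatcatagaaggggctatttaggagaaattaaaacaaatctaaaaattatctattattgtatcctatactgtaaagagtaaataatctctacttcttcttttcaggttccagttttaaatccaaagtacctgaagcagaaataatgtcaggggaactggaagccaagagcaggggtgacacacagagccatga

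ACACACCTTTAATC was the longest word found in the windows of at least 3 members, at 14 letters. It stood 3 times in the Zfp352 window, 1 time in that of Tdpoz1 and 3 times in that of Sp110. ATATAAG, shown because it contains the TATAA of a core promoter, was 1 of 5 tied words of 7 letters that were the longest outside it. It stood 1 time in each, after the longer word, beginning 29 bases before the start in Zfp352, 59 bases before it in Tdpoz1 and 28 bases before it in Sp110. Searched on both strands, the longer word was present in 0.125% of the 32851 promoter windows of all genes and ATATAAG in 2.52%. Both stood on the strand of the gene in 29 windows, 0.0883% of all. As the words were found in these windows, the shares only describe how uncommon the letters are. Over the aligned bases, the Tdpoz1 and upstream Sp110 windows were 72.5% identical, those of Zfp352 and upstream Sp110 65.1%, and those of Tdpoz1 and Tdpoz4 52.7%. The windows of Tdpoz4 and of the downstream start of Sp110 held neither word. Pairs that included either of these windows, that of Tdpoz1 and Tdpoz4 among them, ranged from 46.9% to 57.6% identity. As the Tdpoz4 window may lie away from its promoter, its letters and identities may not describe that promoter. A match describes letters and does not show that a factor binds there.

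Of the 9 genes, 7 had a higher level after the Set1a siRNA than after the control siRNA, 0 had a lower one, and 2 were listed at 0 in both. Tdpoz4 and Tmem92 passed a fold of 2 once 1 RPKM was added to each value, the rule of size used for all genes. By this rule 0.589% of all 22421 genes were called higher and 0.343% lower. The median log2 fold, log2((Set1a siRNA RPKM + 1)/(control siRNA RPKM + 1)), was 0.31 over the 9 genes and 0.00 over all genes. Among the 10634 genes with a mean under 1 RPKM, where 8 of the 9 markers lie, the shares past 2-fold were 0.386% higher and 0.273% lower. Of the genes in that range with a value above 0, 62.5% were higher in the Set1a siRNA library, as were 6 of 6 markers. Tdpoz1, Tdpoz3 and Tmem92 were at 0 in the control siRNA library, so with a value above 0 they could only be higher. The 6 of 6 is therefore a description only. In bulk RNA, more cells in the 2-cell-like state and more RNA per such cell cannot be told apart.

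**Figure D1:**
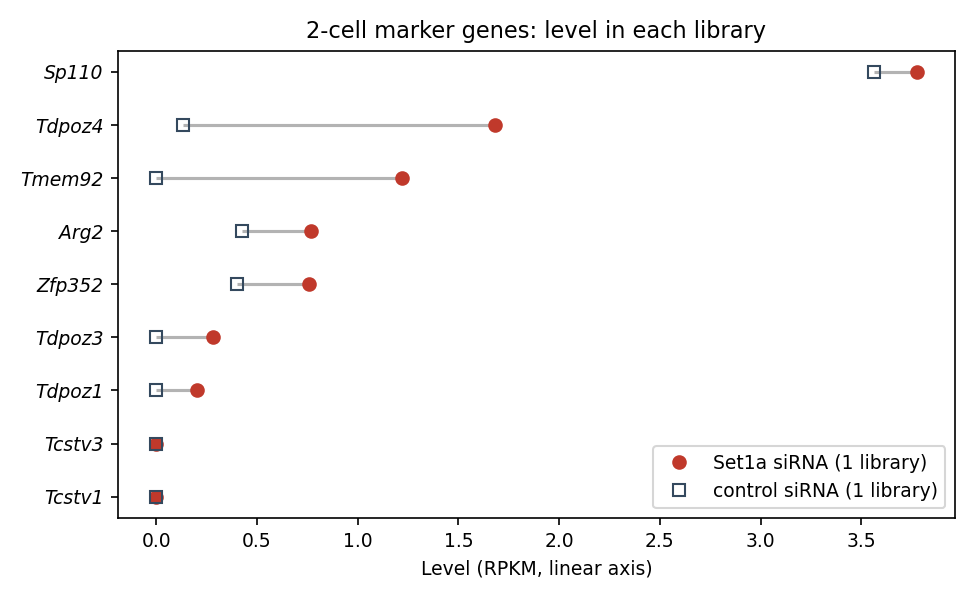
Level of each of the 9 marker genes in RPKM (linear axis) in the Set1a siRNA library (filled circles) and the control siRNA library (open squares), 1 library each; grey lines join both values of a gene. Sp110 is the highest in both libraries at 3.77 RPKM with Set1a siRNA and 3.56 RPKM with control siRNA, Tdpoz4 and Tmem92 have the widest gaps, and Tcstv1 and Tcstv3 are at 0.

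Tdpoz1, Tdpoz3 and Tdpoz4 encode proteins with a TRAF-like domain and a POZ domain, related to SPOP, a substrate adaptor of cullin 3 ubiquitin ligases. Tdpoz4 was at 1.68 RPKM in the Set1a siRNA library and 0.135 RPKM in the control siRNA library. These values correspond to 12 reads in the Set1a siRNA library and 1 read in the control siRNA library, a ratio of 12.4 with a counting interval of 1.84 to 532. The interval is wide because it rests on 1 control read, but it did not include 1. Tdpoz1 was at 0.203 RPKM, or 3 reads, in the Set1a siRNA library and at 0 in the control siRNA library. Tdpoz3 was at 0.284 RPKM, or 2 reads, in the Set1a siRNA library and at 0 in the control siRNA library. Taking 3 reads as the limit, 0 control reads allow up to 0.194 RPKM for Tdpoz1 and 0.410 RPKM for Tdpoz3. The counting interval of the ratio began at 0.429 for Tdpoz1 and 0.195 for Tdpoz3, had no upper end, and included 1 for both. The differences were therefore not detectable at this depth, and no fold is given.

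Other members of the family were listed at similarly low levels. Tdpoz2 had 4 reads in the Set1a siRNA library and 0 in the control siRNA library, and Tdpoz5 had 6 in the Set1a siRNA library and 0 in the control siRNA library. Tdpoz7, Tdpoz8 and Tdpoz9, named after their values were seen, had 6, 9 and 5 reads in the Set1a siRNA library, against 0, 1 and 0 in the control siRNA library. All 8 listed Tdpoz genes thus had more reads in the Set1a siRNA library, and Tdpoz4 was the one that passed 2-fold with 1 RPKM added. The counting intervals of Tdpoz5 and Tdpoz7, both from 1.22, and of Tdpoz8, from 1.29, also lay above 1. Those of Tdpoz1, Tdpoz2, Tdpoz3 and Tdpoz9 included 1. The reads of the Tdpoz genes are not independent counts. The transcripts of Tdpoz5 and Tdpoz7 are identical over 1023 bases and carry the same value, 0.913 RPKM in the Set1a siRNA library and 0 in the control siRNA library. Of 16 groups of different genes with identical transcripts and a value above 0, 7 carried equal values in both libraries, so the same reads may be listed under more than 1 gene. Tdpoz1 is 97.6% identical to Tdpoz9 and 88.6% to Tdpoz3 over the aligned bases, and Tdpoz4 is 94.7% identical to Tdpoz8. Summed over the 3 Tdpoz markers, 17 reads in the Set1a siRNA library stood against 1 in the control siRNA library, a ratio of 17.6 (2.76 to 737), an interval that is too narrow if reads were listed at several copies.

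**Figure D2:**
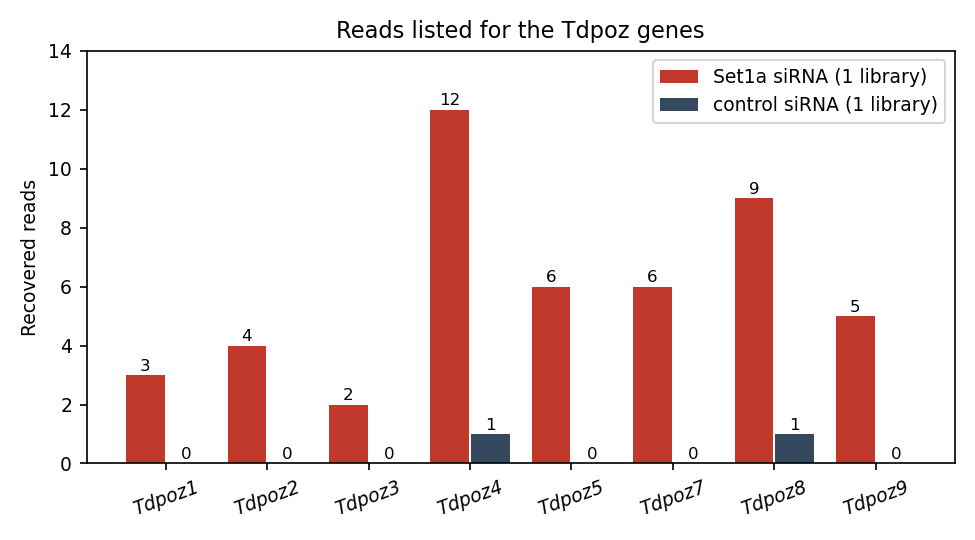
Reads recovered from the deposited values for the 8 listed Tdpoz genes (linear axis from 0), with the Set1a siRNA library in red at the left of each pair and the control siRNA library in dark grey at the right, 1 library each. Every gene has 2 to 12 reads in the Set1a siRNA library and 0 or 1 in the control siRNA library; Tdpoz5 and Tdpoz7 have identical transcripts and may show the same reads.

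The wider family includes Spop and Spopl, which are expressed in many cell types, and these did not move together. Spop was at 11.3 RPKM in the Set1a siRNA library and 14.4 RPKM in the control siRNA library, a ratio of 0.786 (0.654 to 0.944). Spopl was at 3.38 RPKM in the Set1a siRNA library and 2.29 RPKM in the control siRNA library, a ratio of 1.48 (1.14 to 1.93). Both stayed under 2-fold.

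Tmem92, which encodes a small transmembrane protein, had the most reads of the 3 markers that were at 0 in the control siRNA library and above 0 in the Set1a siRNA library. Its longer transcript was at 1.22 RPKM, or 16 reads, in the Set1a siRNA library and at 0 in the control siRNA library. With the limit of 3 control reads, and with the 16 reads taken as exact, the ratio was 5.53. This value is not a lower bound once counting error in the 16 reads is included. The counting interval of Tmem92 began below 5.53 but lay above 1, with no upper end. The shorter transcript was at 1.07 RPKM in the Set1a siRNA library and 0 in the control siRNA library, and its reads may be shared with the longer one. The rows are therefore not separate evidence. Of the 7 markers with a read, 2 had an interval above 1 and 0 below it, against 9.87% above and 8.42% below among the 16814 genes with a read.

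The Tdpoz4 and Tmem92 pattern, with a nearly empty control, was uncommon in either direction but not unique to them. Of 6695 genes of at least 200 nucleotides with at most 1 control read, 27 (0.403%) had 12 or more reads in the Set1a siRNA library, Tdpoz4 and Tmem92 among them. In the other direction, of 6455 genes with at most 1 read in the Set1a siRNA library, 2 (0.031%) had 12 or more control reads. The limit of 12 reads was set after the value of Tdpoz4 was seen, so Tdpoz4 lies on it by construction.

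**Figure D3:**
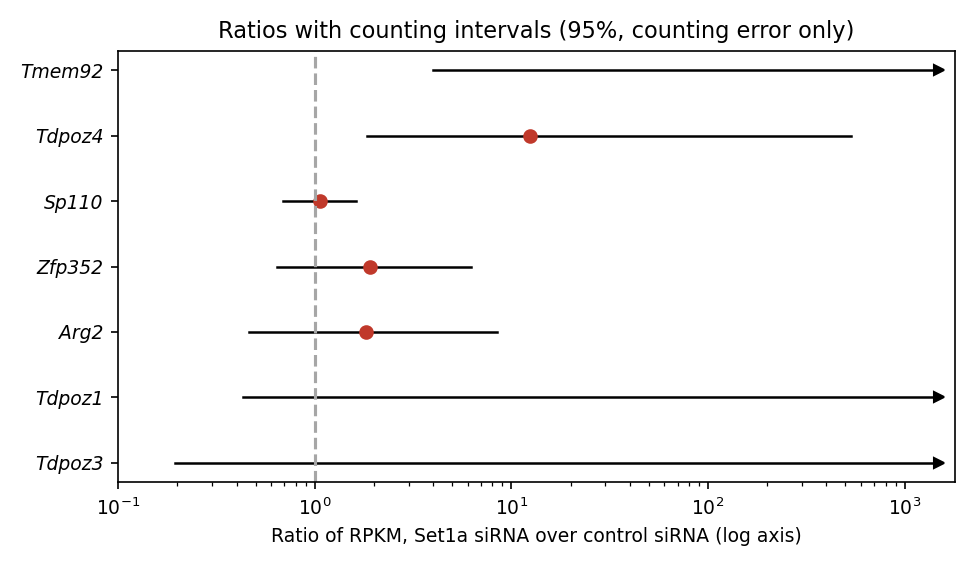
Ratio of RPKM, Set1a siRNA over control siRNA (log axis), for the 7 marker genes with at least 1 read; circles give the ratio, lines the 95% counting interval, and arrowheads an interval with no upper end because the control had 0 reads. The intervals of Tmem92 and Tdpoz4 lie above 1 and the other 5 include 1.

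Zfp352, a zinc finger gene abundant in 2-cell embryos, was detected in both libraries. It was at 0.758 RPKM, or 11 reads, in the Set1a siRNA library and 0.399 RPKM, or 6 reads, in the control siRNA library. The ratio of 1.90 had a counting interval of 0.645 to 6.26, so a difference was not detectable at this depth, and a change of several fold in the upward direction lies inside the interval. Its log2 fold with 1 RPKM added was 0.33.

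Arg2 encodes the mitochondrial arginase, which splits arginine into ornithine and urea. It was at 0.769 RPKM, or 7 reads, in the Set1a siRNA library and 0.424 RPKM, or 4 reads, in the control siRNA library, a ratio of 1.81 (0.462 to 8.46). Its cytosolic relative Arg1 had 2 reads in the Set1a siRNA library and 0 in the control siRNA library, both under the limit of 3 reads. Neither arginase gene showed a difference beyond counting error.

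Sp110 encodes an interferon-inducible nuclear body protein and was the best expressed of the 9 genes. It was at 3.77 RPKM in the Set1a siRNA library and 3.56 RPKM in the control siRNA library, about 47 reads in the Set1a siRNA library and 46 in the control siRNA library. The ratio of 1.06 had an interval of 0.691 to 1.63, whose upper end is below 2-fold. Its relatives, also genes of nuclear body proteins, gave values on both sides of detection. Sp140 was at 3.29 RPKM in the Set1a siRNA library and 2.11 RPKM in the control siRNA library, a ratio of 1.55 (0.989 to 2.48). Sp100 was near 0, at 0.0722 RPKM in the Set1a siRNA library and 0.0696 RPKM in the control siRNA library. Sp110 shares the promoter letters shown above with Zfp352 and Tdpoz1, but which of its starts was used in these cells is not given by the files.

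Tcstv1 and Tcstv3, genes of the 2-cell-stage variable group that have been linked to telomere length in mouse embryonic stem cells, were listed at 0 in both libraries. A count of 0 allows up to 0.534 RPKM for Tcstv1 in the Set1a siRNA library and 0.515 RPKM in the control siRNA library. For Tcstv3 the limits were 0.600 RPKM in the Set1a siRNA library and 0.578 RPKM in the control siRNA library. The transcripts of both genes are 92.5% identical over the aligned bases. Their relatives BC147527 and B020031M17Rik, at 86.4% to 89.5% identity and named after their values were seen, were also at 0 in both libraries. A value of 0 in both libraries was held by 24% of all genes, and how reads that fit several copies were treated is not known, so these rows do not show that the genes were silent.

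Of the 2-cell genes outside these 9, a list of 35 symbols, 29 had a value, and 17 were called 2-fold higher after the Set1a siRNA and 0 lower, where 0.589% and 0.343% of all genes were. Without regard to size, 23 of the 29 were higher, 4 lower and 2 at 0 in both, beside 9314, 7724 and 5383 of all 22421 genes. The intervals of 19 lay above 1 and of 2 below it, where 9.87% and 8.42% of genes with a read did so. The 2 below were Trim43b, with a ratio of 0.620 (0.444 to 0.860), and Phf11a, with 0.655 (0.459 to 0.930). The median log2 fold of the 29 was 1.58, against 0.31 for the 9 markers. Most of the 29 belong to families of near-identical copies, and the difference between the lists was not tested. The Zscan4 genes, which act at telomeres, had the largest folds. Zscan4f was at 41.2 RPKM in the Set1a siRNA library and 2.22 RPKM in the control siRNA library, and the log2 folds of Zscan4b, Zscan4d and Zscan4c were 3.67, 3.56 and 3.48. These genes were also more abundant than any of the 9 markers in the Set1a siRNA library: the highest marker there was Sp110, at 3.77 RPKM. The scatter of all genes shows the markers near the origin, where the added 1 RPKM understates a change.

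**Figure D4:**
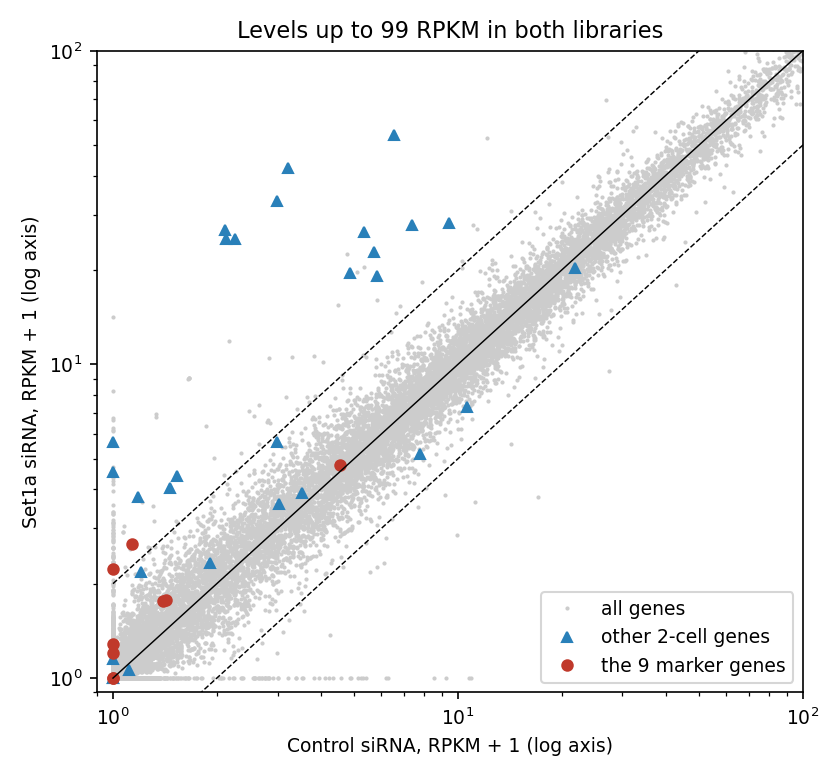
RPKM + 1 in the control siRNA library (x) and the Set1a siRNA library (y), both log axes, for all genes up to 99 RPKM (grey), other 2-cell genes (blue triangles) and the 9 marker genes (red circles); the solid line marks equal values and dashed lines 2-fold. Tdpoz4 and Tmem92 are the 2 markers above the upper dashed line, and 17 other 2-cell genes lie above it.

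Of the genes known to switch the 2-cell-like state on or off, the 4 activators and 19 repressors with a mean of at least 1 RPKM lay under 2-fold in either direction. Duxf3, the transcription factor that induces the state, had 2 reads in the Set1a siRNA library and 0 in the control siRNA library, too few for a fold, so a change of it was not detectable at this depth. Dppa2 and Dppa4, which act upstream of it, had ratios of 1.02 (0.921 to 1.14) and 0.937 (0.829 to 1.06). Nelfa, a subunit of the negative elongation factor, had a ratio of 1.26 (1.08 to 1.48), and Tbx3, a transcription factor of naive stem cells, one of 1.06 (0.979 to 1.14). Of 19 repressors of the state, 4 were higher and 15 lower, with a median log2 fold of -0.06, beside 6034 higher and 5753 lower among the 11787 genes averaging 1 RPKM or more. The intervals of 3 repressors lay below 1 and of 3 above it, where 8.42% and 9.87% of all genes with a read did so. The repressors are well expressed, and an interval excludes 1 more readily with more reads, so these shares are not a like background. Pcgf6, a subunit of a variant Polycomb complex, had a ratio of 0.784 (0.661 to 0.933), and Mga, its DNA-binding partner, of 0.847 (0.798 to 0.899). Zmym2, a zinc finger corepressor, had 0.842 (0.752 to 0.944), and Chaf1a, the large subunit of a histone chaperone, 1.21 (1.11 to 1.32). Trim28, a corepressor of retrotransposons, had 1.16 (1.12 to 1.19) and Lin28a, an RNA-binding protein gene, 1.10 (1.03 to 1.17).

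**Figure D5:**
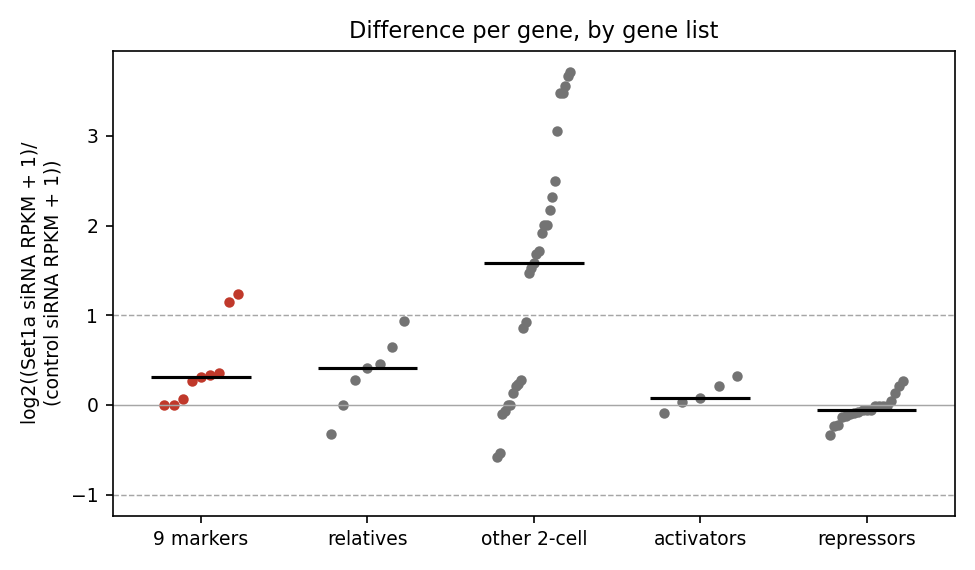
log2((Set1a siRNA RPKM + 1)/(control siRNA RPKM + 1)) of each gene with a value, by list: the 9 markers (red), relatives of their families, other 2-cell genes, activators and repressors of the 2-cell-like state; black bars are medians and dashed lines 2-fold. The medians are 0.31 for the markers, 0.42 for relatives, 1.58 for other 2-cell genes, 0.08 for activators and -0.06 for repressors.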

How the data were processed

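RNA was sequenced from 1 library per group, with the transfection label giving the group. The deposited tables give 1 value per RefSeq transcript for 28430 transcripts, without a header; the unit RPKM was inferred from the deposited values, which move in whole steps once multiplied by transcript length. CASAVA, TopHat, TopHat2 2.0.12 and SAMtools 0.1.16 with build mm9 are named, per the submitters' processing notes, without role or order. How reads were counted (program, strand, reads with several matches) is not given in the sources used here.

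Symbols came from a RefSeq gene table on GRCm38.p6 and GENCODE M21 (98.3% of transcripts), lengths from GENCODE M21 (96.9%). Promoter coordinates and sequences are from RefSeq on GRCm38.p6, not from the authors' build. For a gene with several transcripts, the one with the most reads was used. Depth was recovered from the step of 1 read in low values: 73.9% of transcripts of 1 to 5 reads in the Set1a siRNA library and 74.7% in the control siRNA library were no more than 0.1 from a whole number, where random values would give 20%, and reads were then rounded. Ratios are of the deposited RPKM. Their exact Clopper-Pearson 95% intervals come from the reads and cover counting error only. An interval excludes 1 more readily with more reads, and the shares over all genes with a read were not matched to any list for read number. For a count of 0, 3 reads stand as the limit. Transcripts were compared with BLAST 2.17.0 with minimums of 80% identity and 50% coverage of the shorter transcript. Python 3.11.15, numpy 2.4.6, pandas 2.3.3 and scipy 1.17.1 were used, and the steps were tested on simulated counts.

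All 9 markers are named; relatives are named where listed, and from the lists of other 2-cell genes, activators and repressors up to 4 genes each with the largest folds among those averaging 1 RPKM or more. Duxf3, Trim28, Lin28a, Trim43b, Phf11a and the stem cell and fibroblast markers lie outside that rule and were picked with their values in view. The markers and lists were chosen with earlier results of these data known. Zscan4e, Usp17le, AF067061 and other listed symbols without a row were not analysed here.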

Additional observations from a re-analysis of the deposited data

How the results depend on the processing

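No member changed sign in 36 recomputed log2 folds, which varied the pseudocount, the scaling and the transcript chosen per gene. Tcstv1 and Tcstv3 were 0 in each. A pseudocount cannot change a sign, and the scaling factor was 1.002. The transcript rule chose the same transcript for every marker, so the unchanged signs are not a check of the result. The number of markers at least 2-fold higher, 2 of 9, was 4 with a pseudocount of 0.1, where Tdpoz1 and Tdpoz3 joined on 3 and 2 reads, and 0 with a pseudocount of 5, with a 3-fold rule, and with a floor of 1 RPKM, which left Sp110 alone. A pseudocount of 5 shrinks low genes and a floor removes them by construction. No marker reached a floor of 5 RPKM, so it gave no value. The count was 2 with a 1.5-fold rule, with a counting interval that excludes 1 (9.87% of genes with a read lay above 1 and 8.42% below), with median-of-ratios scaling (a factor of 1.002), with the transcript of highest RPKM and, in an alternative added after seeing the data, with the Tdpoz markers counted once. The transcript rule kept the same transcripts, and counting the Tdpoz markers once kept Tdpoz4, which had the most reads, so neither setting could change the count. The log2 fold of Tdpoz4 ranged from 0.38 to 2.92 and that of Tmem92 from 0.31 to 3.72 with the pseudocount. For the other 2-cell genes, 17 past 2-fold became 20 and 12 with pseudocounts of 0.1 and 5. No paired analysis was possible because there was 1 library in each group. Depth limits these genes, as 8 of the 9 markers had at most 16 reads in a library.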

Other observations

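The letters shared by the Zfp352, Tdpoz1 and upstream Sp110 promoters were found, both on the strand of the gene, in windows of 28 genes, of which 10 had a value in these libraries. Of these, 7 were higher in the Set1a siRNA library, 2 lower and 1 at 0 in both. The 7 included Zfp352, Tdpoz1 and Sp110, from whose windows the letters were taken. Of all 22421 genes, 9314 were higher, 7724 lower and 5383 at 0 in both. Of the 10, 1 gene passed 2-fold upward and 0 downward, where 0.589% and 0.343% of all genes did. That gene was Gm4340, at 53.0 RPKM in the Set1a siRNA library and 5.52 RPKM in the control siRNA library, a ratio of 9.60 (7.11 to 13.4). Spopfm2, a relative of Tdpoz2, had 9 reads in the Set1a siRNA library and 1 in the control siRNA library, and Gm5891 had about 9 in the Set1a siRNA library and 1 in the control siRNA library. Tdpoz9 had 5 reads in the Set1a siRNA library and 0 in the control siRNA library. Zbed3 went the other way, at 7.24 RPKM in the Set1a siRNA library and 10.5 RPKM in the control siRNA library, a ratio of 0.691 (0.522 to 0.913), and the interval of Pemt, 0.355 to 1.61, included 1. These genes were found from promoter letters picked after the windows were read, and several are copies of each other, so their values are a description.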
